A study of Bos taurus with 138 samples.

Results

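The RAB small GTPases were taken as every row of the bovine count table whose symbol is RAB followed by a number and at most one letter from A to D, which gave 59 genes of 16706. Neither partners such as RAB11FIP3 nor other small GTPases enter under this rule. The rule uses symbols and no measured value, but it was set with earlier results of these data known. By textbook role, 16 of the 59 belong to the early endosome and recycling routes, 20 to the endoplasmic reticulum (ER), Golgi and cell surface, 7 to late endosomes, lysosomes and autophagy, 11 to regulated secretion and lysosome-related organelles, and 5 to the cilium or other roles.

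RAB proteins are the largest branch of the Ras superfamily and mark the membranes of the secretory and endocytic routes. An exchange factor loads a RAB with GTP at its membrane, the GTP-bound form recruits effectors that move, tether or fuse vesicles, and a GTPase activating protein, mostly of the TBC family, returns it to the GDP-bound form, which a GDP dissociation inhibitor extracts. In oocytes these routes serve cortical granule release and membrane uptake, and in the trophectoderm of the blastocyst they serve the polarised delivery of apical and basolateral membrane.

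RNA was sequenced from bovine (Bos taurus) germinal vesicle (GV) and metaphase II (MII) oocytes and from 2-cell, 8-cell, morula and blastocyst embryos. At each of the 6 stages, lysates of pooled material were run through 2 sucrose gradients, A and B, each cut into 10 fractions (F1 to F10), and 3 transcriptomes, A, B and C, were made without fractionation. The study takes F1 and F2 as mainly free RNA, F3 to F5 as monosomes and F8 to F10 as polysomes. Here the sum of F8 to F10 of 1 gradient is called a polysome pool, so that a stage has n = 2 pools and n = 3 transcriptomes. No group carries a genetic change or a treatment that sets it apart. Oocytes came from slaughterhouse ovaries, those of the GV stage taken from small follicles without maturation and those of the MII stage matured in vitro, and embryos were fertilised and cultured in vitro. By the study's methods all stages were treated with cycloheximide, which halts ribosomes, in culture shortly before collection, and it was also in the lysis buffer and gradients. Every sample pools many oocytes or embryos, and from MII on describes in vitro development. Levels are given as CPM, a gene's count scaled to a common library size with edgeR's TMM factors and so a share of its library, and in these bulk samples fewer cells carrying a transcript cannot be told apart from less of it per cell.

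Totals lay between 22543733 and 39380640 counts in the polysome pools and between 3269385 and 11812541 in the transcriptomes, where 3 counts, taken as the floor of detection, correspond to 0.0757 to 0.145 CPM and to 0.226 to 0.882 CPM. The 8 oocyte markers (GDF9, BMP15, ZP2, ZP3, ZP4, OOEP, NLRP5 and DDX4) summed to 9357 to 20720 CPM in transcriptomes from GV to 2-cell and to 43.3 to 633 CPM from 8-cell on. The 6 blastocyst markers in the table (CDX2, GATA3, NANOG, KRT8, KRT18 and DSP) behaved unevenly. KRT18, a keratin of the trophectoderm, had 3003, 3389 and 3115 CPM in blastocyst transcriptomes and 0 in those of GV oocytes. Transcriptome means of KRT8, GATA3 and DSP were also highest in blastocysts. NANOG, however, had 126, 220 and 205 CPM in 8-cell against 11.8, 46.4 and 31.0 CPM in blastocyst transcriptomes. Mean CDX2 was 6.94 CPM in 2-cell and 7.05 CPM in blastocyst transcriptomes. The 8 cumulus and granulosa markers (FSHR, AMH, CYP19A1, HAS2, PTX3, TNFAIP6, FOXL2 and CYP11A1) summed to 278 to 367 CPM in MII, 104 to 115 CPM in 2-cell and 111 to 241 CPM in 8-cell transcriptomes, against 31.8 to 43.1 CPM in GV and 6.57 to 23.8 CPM in morula and blastocyst transcriptomes. Of the 3 blood markers in the table, PTPRC was at 0 in all pools and at most 0.913 CPM in transcriptomes. CD3E had 8.12 and 12.4 CPM in GV pools and 16.5 and 17.7 CPM in MII pools against 9.11, 10.6 and 14.8 CPM and 6.18, 5.88 and 4.64 CPM in the transcriptomes, and CD14 had 76.8 and 7.99 CPM in morula pools against 2.33, 1.34 and 3.23 CPM. Their part in the results was not tested.

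Of the 59 members, 55 passed the filter on low counts, and RAB19, RAB36, RAB38 and RAB44 did not. Each of the 55 was compared between polysome pool and transcriptome at every stage by edgeR's quasi-likelihood test in 1 model of 30 libraries, with Benjamini-Hochberg adjustment over 14612 genes, and was called at an adjusted p under 0.05. The ± values below are standard errors of the log2 difference. These p-values rest on the spread between samples of the same stage and kind, estimated jointly over the 12 groups of the model. The submitters describe these samples as biological duplicates and triplicates.

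Members were found on both sides at every stage. In GV oocytes 15 of the 55 were called higher in polysomes (27.3% of members, against 22.1% of all genes tested) and 11 lower (20.0% against 17.6%), and in MII oocytes 18 were higher and 18 lower (32.7% each, against 30.7% and 26.7%). In 2-cell embryos 18 were higher and 13 lower (all genes, 29.0% and 21.9%), in 8-cell embryos 20 and 17 (27.9% and 31.0%), in morulae 19 and 15 (26.4% and 25.1%), and in blastocysts 16 and 13 (19.9% and 19.9%). The members' median log2 difference was 0.06, 0.00, 0.00, -0.53, 0.78 and 0.14 in the order of stages, beside 0.00, 0.00, 0.18, -0.26, 0.00 and -0.08 over all genes. The shares called at single stages were thus not far from those of all genes. Called higher at all 6 stages were 10 of the 55 members, a larger share than the 9.90% of all genes. Called lower at all 6 were 4 of the 55, a share slightly above the 5.80% of all genes. A further 6 members were called higher at some stages and lower at others, and 7 were called at none. Neither of these last counts was made over all genes.

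**Figure D1:**
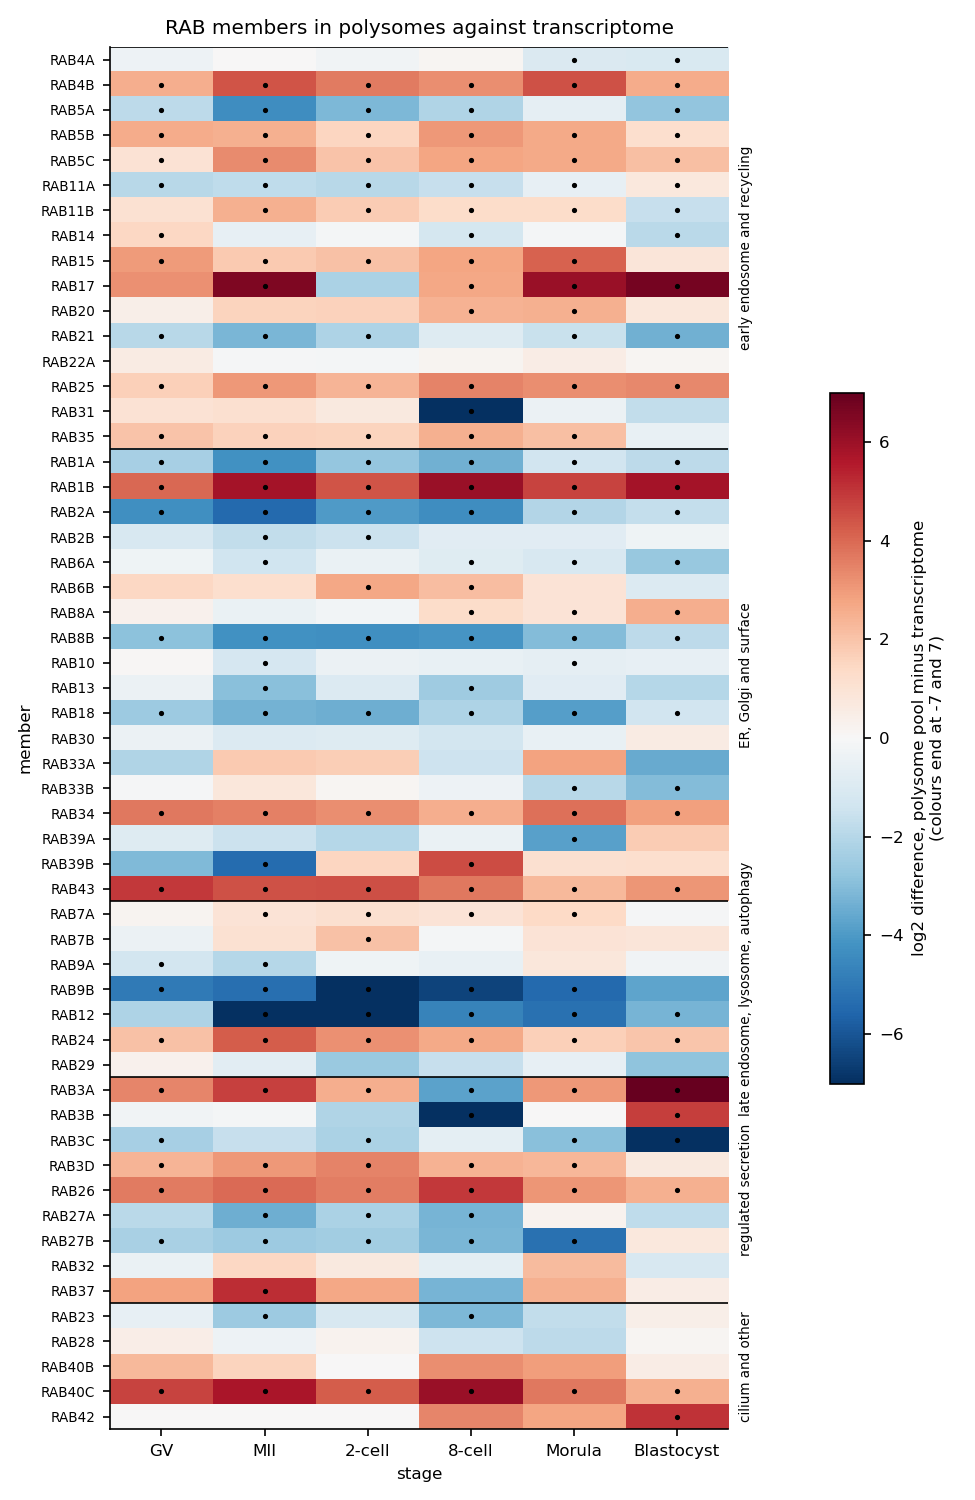
Heat map of the log2 difference between polysome pool and transcriptome (colour, red higher in polysomes) for the 55 members (rows, in 5 role groups) at 6 stages (columns), with a dot where the call passed. RAB1B, RAB4B, RAB5B, RAB5C, RAB24, RAB25, RAB26, RAB34, RAB40C and RAB43 are red with a dot at all 6 stages, and RAB1A, RAB2A, RAB8B and RAB18 are blue with a dot at all 6.

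Members that share a RAB number form 14 groups among the 55. In 7 of these (RAB1, RAB3, RAB4, RAB5, RAB6, RAB8 and RAB11) members were called on opposite sides of the transcriptome at 1 or more stages. In 6 (RAB2, RAB3, RAB5, RAB7, RAB9 and RAB27) members were called on the same side at 1 or more stages, RAB3 and RAB5 counting under both, and the members of RAB33, RAB39 and RAB40 met neither description. Opposite calls occurred at 1 stage for RAB6, 2 for RAB4, 3 for RAB8, 5 for RAB3, RAB5 and RAB11 and 6 for RAB1. RAB3 has 4 members and RAB5 has 3. How often unrelated genes in groups of these sizes are called on opposite sides was not counted. RAB5 proteins drive the fusion of endocytic vesicles into early endosomes, and of the 3 genes for them RAB5A was lower in polysomes and RAB5B and RAB5C were higher. RAB5A had 12 and 5.08 CPM in the GV pools against 31.7, 30 and 29.2 CPM in the GV transcriptomes. In MII oocytes it had 1.95 and 2.97 CPM against 56.1, 48.3 and 45.6 CPM. Pools and transcriptomes of RAB5A did not overlap at these stages, and the log2 differences were -1.83 ± 0.42 (adjusted p = 0.00114) in GV and -4.34 ± 0.48 (adjusted p = 4.40e-08) in MII oocytes. It was called lower at all stages but the morula (-0.65 ± 0.40), where the groups overlapped. Without GV pool B the GV difference was -1.33 and was not called.

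RAB5B had 529 and 403 CPM in the 8-cell pools against 52.4, 62.2 and 52.5 CPM in the transcriptomes, a log2 difference of 3.06 ± 0.31 (adjusted p = 2.26e-08). Its difference was smallest in blastocysts, at 1.18 ± 0.30 (adjusted p = 0.00351), where the pools held 292 and 315 CPM and the transcriptomes 166, 106 and 131 CPM. RAB5C had 91.5 and 75.6 CPM in MII pools against 8.59, 8.21 and 8.09 CPM in the transcriptomes (3.33 ± 0.26, adjusted p = 1.86e-10). At no stage did the pools and transcriptomes of RAB5B or RAB5C overlap. The smallest RAB5C difference, 1.03 ± 0.25 in GV oocytes, was not called with F9 and F10 alone (0.72).

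RAB4 proteins return receptors quickly from early endosomes to the surface, and here RAB4B was higher in polysomes at all 6 stages and RAB4A at none. Morula pools held 250 and 78.0 CPM of RAB4B against 6.81, 7.51 and 8.51 CPM in the transcriptomes, a log2 difference of 4.43 ± 0.41 (adjusted p = 1.06e-08). RAB4A had 27.1 and 37.0 CPM in the same pools and 60.0, 69.1 and 67.0 CPM in the same transcriptomes, and was called lower there (-1.03 ± 0.39, adjusted p = 0.0316) and in blastocysts (-1.04 ± 0.39, adjusted p = 0.0370). In morulae the groups of neither gene overlapped.

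RAB11A, RAB11B and RAB25 make up the subfamily of the recycling endosome, with RAB25 best known from epithelia. RAB11A had 604 and 618 CPM in GV pools against 1972, 2777 and 2391 CPM in the transcriptomes, and it was called lower from GV (-1.96 ± 0.26, adjusted p = 1.54e-06) through the morula (-0.60 ± 0.24, adjusted p = 0.0410). In blastocysts the order turned, with 603 and 569 CPM in the pools and 370, 317 and 377 CPM in the transcriptomes (0.72 ± 0.24, adjusted p = 0.0176). Neither of these small differences held under all settings. The morula call was lost without pool B (-0.19) or any transcriptome (-0.65 to -0.57), with the replicate block (-0.62), with no filter (-0.49), with F9 and F10 alone (-0.51) and in a model of the morula libraries alone (-0.44). The blastocyst call was lost without pool A (0.66), pool B (0.76) or transcriptome B (0.63), and under DESeq2 (0.57) or with its size factors (0.57).

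RAB11B stood the other way around, at lower precision. It had 26.2 and 23.4 CPM in MII pools against 4.35, 6.59 and 2.38 CPM in the transcriptomes (2.48 ± 0.48, adjusted p = 0.000122) and was called higher from MII to morula. In blastocysts it had 9.92 and 13.4 CPM in pools against 42.0, 31.5 and 32.2 CPM (-1.60 ± 0.51, adjusted p = 0.0144), without overlap. Without blastocyst pool A that call was lost (-1.42), as were the 8-cell call without 8-cell pool B or transcriptome B (0.70 and 1.18) and the morula call without pool B, transcriptome B or transcriptome C (0.90, 1.21 and 1.11). The 8-cell and morula calls were also lost with F9 and F10 alone (0.90 and 1.24) and in models of one stage alone (1.30 and 1.38), and the 8-cell call with DESeq2's size factors (1.01). RAB11B counts were not whole numbers in 136 of the 138 libraries, and those of RAB11A in 52, so their reads were shared out with other sequences by estimation. RAB25 was higher in polysomes at all 6 stages, for instance in blastocysts with 311 and 379 CPM against 29.7, 39.6 and 32.8 CPM (3.34 ± 0.44, adjusted p = 2.07e-06).

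**Figure D2:**
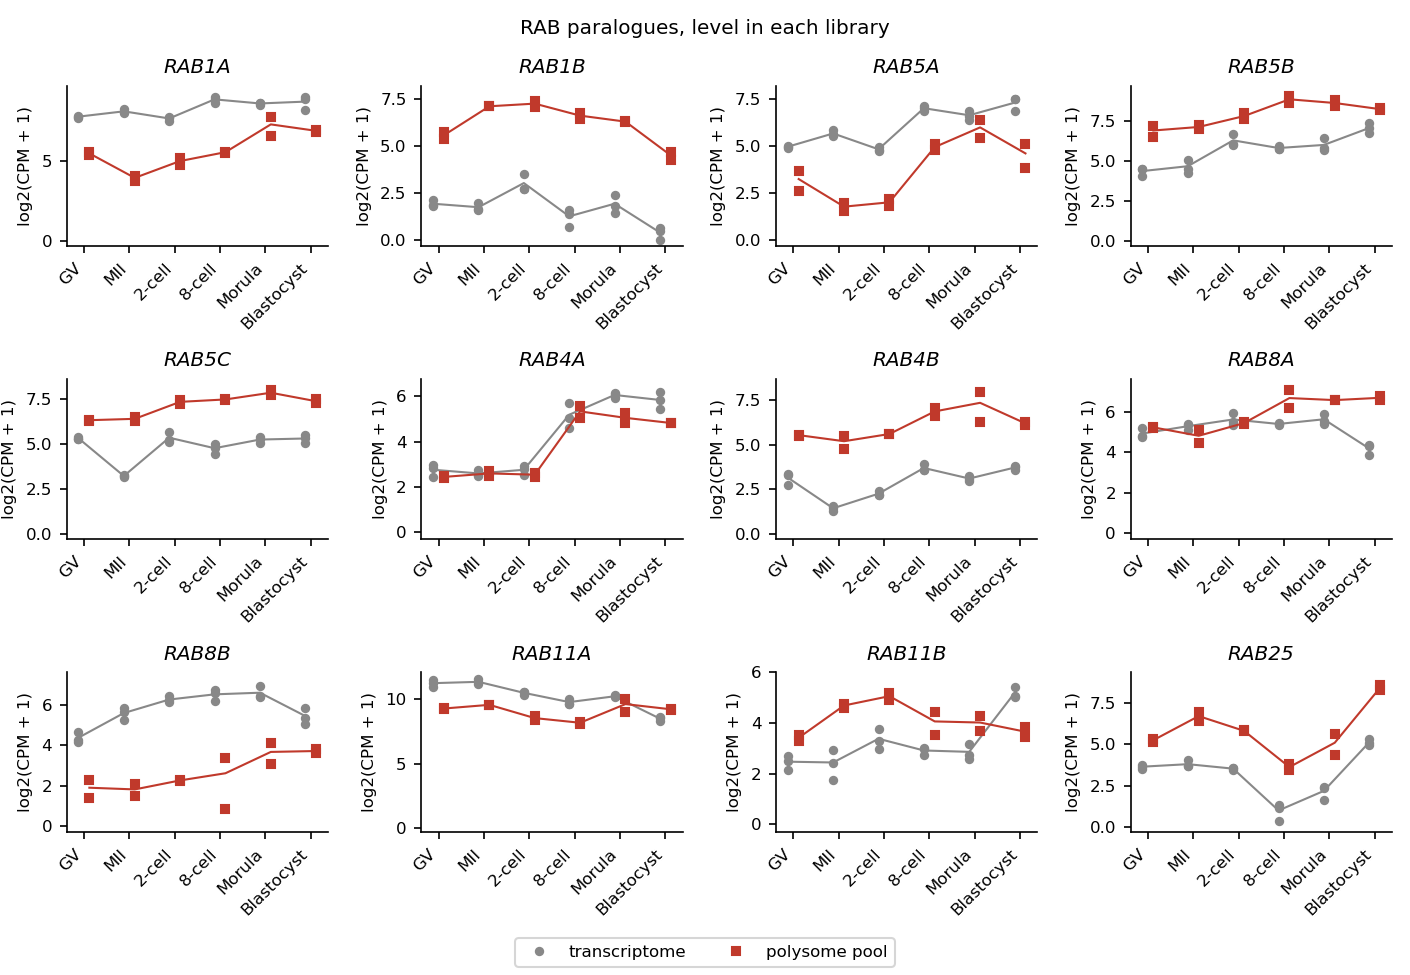
Levels of 12 RAB paralogues at 6 stages, as log2(CPM + 1), with 1 point per library (red squares, 2 polysome pools; grey circles, 3 transcriptomes) and lines through the log2 of the group means. RAB1A, RAB5A and RAB8B run lower in polysomes, with the RAB5A morula pools closest to the transcriptomes, while RAB1B, RAB4B, RAB5B, RAB5C and RAB25 run higher, and RAB11A and RAB11B change places in blastocysts.

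Among other members of the early endosome and recycling group, RAB15 and RAB35 were called higher in polysomes at every stage from GV to morula but not in blastocysts. RAB15 had 181 and 54.5 CPM in morula pools against 8.59, 6.08 and 5.49 CPM in the transcriptomes (4.13 ± 0.44, adjusted p = 7.37e-08), without overlap. RAB21, which takes part in integrin uptake, was called lower at all stages but the 8-cell. Blastocyst pools held 15.5 and 8.64 CPM of RAB21 and transcriptomes 99.4, 138 and 137 CPM (-3.37 ± 0.51, adjusted p = 1.31e-05). Of the 16 members of this group, those called higher and lower numbered 7 and 3 in GV, 8 and 3 in MII, 7 and 3 in 2-cell, 9 and 4 in 8-cell, 9 and 3 in morula and 6 and 5 in blastocyst samples. The shares higher, in that order, were 43.8%, 50.0%, 43.8%, 56.2%, 56.2% and 37.5%, beside the 19.9% to 30.7% of all genes given above, and the shares lower 18.8% to 31.2%, beside 17.6% to 31.0%.

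In the ER, Golgi and surface group, RAB1 proteins carry vesicles from the ER to the Golgi, and RAB1A and RAB1B differed in opposite directions at all 6 stages. RAB1B had 135 and 138 CPM in MII pools against 2.06, 2.94 and 2.14 CPM in the transcriptomes (5.83 ± 0.52, adjusted p = 1.31e-09). In 8-cell embryos it had 108 and 84.8 CPM against 1.63, 0.627 and 2.00 CPM (6.07 ± 0.53, adjusted p = 1.72e-09), and the smallest of its 6 differences was 4.03 ± 0.48 in GV oocytes. RAB1A had 13.0 and 16.3 CPM in MII pools against 264, 275 and 305 CPM in the transcriptomes (-4.26 ± 0.34, adjusted p = 1.98e-10). Its difference was closest to 0 in morulae, at -1.32 ± 0.29 (adjusted p = 0.000615), where the pools held 220 and 97.4 CPM and the transcriptomes 378, 399 and 410 CPM. Neither gene's pools overlapped its transcriptomes at any stage. In the RefSeq annotation RAB1A overlaps CEP68 and RAB1B overlaps CNIH2, RAB5A overlaps PP2D1 and RAB24 overlaps NSD1, and as no strand setting is given for the counting, reads of such overlaps cannot be told apart.

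RAB2A, an ER-Golgi member, had 4.18 and 0.858 CPM in MII pools against 123, 109 and 92.2 CPM (-5.42 ± 0.62, adjusted p = 8.68e-08). By the blastocyst its difference was -1.67 ± 0.51 (adjusted p = 0.0111), with pools of 30.6 and 56.6 CPM. Both times the pools lay below all transcriptomes. RAB2B had 135 and 115 CPM in MII pools against 371, 411 and 469 CPM and was called lower in MII (-1.73 ± 0.51, adjusted p = 0.00609) and 2-cell samples (-1.50 ± 0.51, adjusted p = 0.0168), with differences of -1.14 to -0.32 and no call at the others. RAB8A and RAB8B move vesicles from the Golgi to the plasma membrane. RAB8B was lower at all 6 stages, for instance with 3.86 and 3.69 CPM in 2-cell pools against 73.4, 85.1 and 68.4 CPM in the transcriptomes (-4.32 ± 0.69, adjusted p = 1.45e-05). RAB8A was called at none of the first 3 stages and higher from the 8-cell on, by 2.56 ± 0.32 (adjusted p = 1.17e-06) in blastocysts, where the pools held 93.6 and 109 CPM and the transcriptomes 13.5, 19.1 and 18.8 CPM.

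RAB18, a GTPase of the ER and of lipid droplets, was lower at all 6 stages and most so in morulae, with 14.3 and 48.0 CPM in pools against 386, 416 and 579 CPM in the transcriptomes (-3.88 ± 0.51, adjusted p = 1.39e-06). RAB34, which acts in lysosome positioning and in ciliogenesis, was higher at all 6, with 728 and 636 CPM in morula pools against 61.8, 37.4 and 42.3 CPM (3.85 ± 0.42, adjusted p = 1.09e-07). RAB43, a Golgi member, was also higher at all 6, in GV oocytes with 21.7 and 24.2 CPM against 0.911, 0.923 and 0.405 CPM (4.93 ± 0.95, adjusted p = 0.000208). In these 3 examples no pool overlapped a transcriptome. RAB39B rested on few counts. Its MII pools held 0 and 0.0358 CPM against 1.26, 0.710 and 1.07 CPM, and the call there (-5.36 ± 2.28, adjusted p = 0.0481) was lost with any of the 5 MII libraries left out (-7.20 to -4.62), without the filter (-5.22), with F9 and F10 alone (-4.90) and with the replicate block (-5.20).

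Of the late endosome, lysosome and autophagy group, RAB24, an autophagy member, was higher in polysomes at all 6 stages. It had 57.7 and 55.5 CPM in MII pools against 3.09, 2.94 and 2.97 CPM (4.23 ± 0.41, adjusted p = 5.81e-09). RAB7A, which directs late endosomes to lysosomes, was higher from MII to morula by 0.93 to 1.40 and was called neither in GV oocytes nor in blastocysts. RAB9A, which returns cargo from late endosomes to the trans-Golgi network, had 104 and 85.9 CPM in GV pools against 214, 246 and 242 CPM (-1.30 ± 0.39, adjusted p = 0.00977), without overlap, and was also lower in MII oocytes (-1.98 ± 0.40).

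RAB12 and RAB9B were lower in polysomes at low levels. RAB12 had 0 and 1.57 CPM in 8-cell pools against 28.0, 17.7 and 16.8 CPM (-4.69 ± 1.34, adjusted p = 0.00500). In 2-cell embryos, where both RAB12 pools were at 0 and the transcriptomes held 1.07, 1.36 and 2.03 CPM, it was at least 16.9-fold lower against a floor of 3 counts per pool. RAB9B stood at 0 and 0.108 CPM in GV pools against 2.43, 1.74 and 1.42 CPM (-4.95 ± 1.71, adjusted p = 0.0266), and it was at 0 in the pools of 2-cell embryos and every later stage. Leaving out GV pool A or transcriptome A ended the RAB9B call in GV oocytes (-4.02 and -4.72). The RAB12 call in blastocysts (-3.28 ± 1.24, adjusted p = 0.0393) was lost without pool A (-4.45), pool B (-2.64), transcriptome B (-3.03) or transcriptome C (-3.25) and with the replicate block (-3.20).

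In the regulated secretion group, RAB26, which acts on secretory granules, was higher in polysomes at all 6 stages, with 39.7 and 34.4 CPM in 8-cell pools against 0.600, 1.61 and 1.30 CPM (4.97 ± 0.63, adjusted p = 5.60e-07). RAB3 proteins prime granules for exocytosis. RAB3A was higher in polysomes at 5 stages, as in MII oocytes with 5.73 and 4.51 CPM against 0, 0.304 and 0.238 CPM (4.76 ± 1.07, adjusted p = 0.000686). In blastocysts its pools held 3.35 and 4.60 CPM and its transcriptomes 0, at least 5.67-fold higher in polysomes. In 8-cell embryos RAB3A was called lower, at 0 and 0.0271 CPM in the pools and 0.257, 0.269 and 0.348 CPM in the transcriptomes, levels around the floor. Over both 8-cell gradients the mean RAB3A level was 9.16 CPM in F3 to F5 and 0.0154 CPM in F8 to F10. RAB3A counts were not whole in 103 libraries.

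RAB3D was called higher from GV to morula (2.31 to 3.47), and RAB3C lower in GV, 2-cell, morula and blastocyst samples. Blastocyst pools held no RAB3C count while the transcriptomes had 7.64, 2.70 and 3.80 CPM, so polysomes were at least 36.5-fold lower. RAB3B was at 0 in both 8-cell pools against 1.11, 0.986 and 3.04 CPM, at least 16.8-fold lower. RAB27A and RAB27B dock secretory and lysosome-related granules. RAB27B was lower from GV to morula, in GV oocytes with 8.70 and 9.57 CPM against 35.5, 49.2 and 45.5 CPM (-2.25 ± 0.89, adjusted p = 0.0479), and RAB27A in MII, 2-cell and 8-cell samples. In morulae RAB27B was at 0.373, 0.358 and 0 CPM in transcriptomes and 0 in pools, and the call was lost without pool B.

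RAB40C, whose product carries a SOCS box, was among the 3 largest positive differences at 4 stages. Its pools held 171 and 220 CPM in GV, 126 and 86.7 CPM in MII, 185 and 184 CPM in 2-cell and 247 and 275 CPM in 8-cell samples. The transcriptomes of these stages held 8.96, 6.77 and 6.49 CPM, 1.83, 2.53 and 1.78 CPM, 8.98, 9.91 and 10.2 CPM and 3.86, 4.12 and 3.91 CPM, all far below the pools. The log2 differences were 4.72 ± 0.38, 5.69 ± 0.40, 4.25 ± 0.37 and 6.04 ± 0.40 (adjusted p = 1.53e-09, 3.52e-11, 2.87e-09 and 5.12e-11).

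The sum of F3 to F5 or of F1 and F2 was also put in the place of F8 to F10, a comparison chosen after the data were seen. RAB1B was above the transcriptome in all 12 values (6 stages, 2 sums of fractions), by 3.01 to 6.51, and RAB1A was below it in all 12, by -4.82 to -1.33. RAB2A (-5.33 to -1.03), RAB8B (-6.31 to -0.62), RAB18 (-6.62 to -1.71), RAB5A (-4.43 to -0.29) and RAB11A (-2.45 to -0.16) were below it in all 12. RAB4B (0.85 to 5.82), RAB5C (1.27 to 5.33), RAB25 (1.60 to 5.49), RAB26 (2.31 to 6.10), RAB34 (0.14 to 3.33) and RAB40C (0.48 to 6.65) were above it in all 12. RAB5B (-0.46 to 3.29) and RAB24 (-3.12 to 3.87) were above it in 11, RAB11B (-0.89 to 3.32) in 10 and RAB43 (-6.23 to 5.70) in 9. In blastocysts some members changed side. RAB11A was called higher there with F8 to F10 (0.72) and stood at -0.54 with F3 to F5 and -0.16 with F1 and F2. With F1 and F2, RAB43 stood at -6.23 against 3.09 with F8 to F10, RAB24 at -3.12 against 1.94 and RAB5B at -0.46 against 1.18. In morulae RAB43 stood at -1.46 with F1 and F2 and -0.07 with F3 to F5, against 2.25. RAB3A was above the transcriptome in all 12 values (1.95 to 10.76). In 8-cell embryos RAB3A stood at 5.02 with F3 to F5 and 3.27 with F1 and F2, against -3.74 with F8 to F10. The 3 comparisons of a stage share its transcriptomes, and the part that the making of gradient libraries has in them was not tested.

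RAB17, an epithelial RAB of transcytosis and apical recycling, had the largest fitted rise of the members from the 2-cell to the 8-cell stage in both kinds of library. Its pools held 0.126 and 0.568 CPM in GV, 1.22 and 0.0715 CPM in MII, 0 in 2-cell, 23.9 and 41.3 CPM in 8-cell, 35.6 and 65.2 CPM in morula and 169 and 119 CPM in blastocyst samples. The transcriptomes held at most 0.101 CPM from GV to 2-cell, then 11, 2.69 and 1.57 CPM in 8-cell, 1.77, 0.0894 and 0.431 CPM in morula and 1.47, 1.66 and 1.0 CPM in blastocyst samples. From the 2-cell to the 8-cell stage the polysome level rose at least 371-fold against the floor, and the transcriptome by 7.28 ± 1.38 on the log2 scale (adjusted p = 0.000178). Polysomes exceeded the transcriptome by 2.68 ± 0.95 (adjusted p = 0.0207) in 8-cell embryos, 6.03 ± 1.10 (adjusted p = 0.000126) in morulae and 6.71 ± 1.14 (adjusted p = 8.32e-05) in blastocysts, without overlap. Without 8-cell pool B, transcriptome B or transcriptome C the 8-cell difference was not called (2.23, 2.38 and 2.25), nor was it with F9 and F10 alone (1.05) or in a model of the 8-cell libraries alone (2.73), and with F3 to F5 it was -7.67. A call in MII oocytes was lost without pool A (3.45) and with F9 and F10 alone (4.23).

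Within the 8-cell gradients, RAB17 had 0, 0 and 0 CPM in F3 to F5 of gradient A and 0.10, 0 and 0 CPM in those of gradient B. It then had 26.7 and 36.7 CPM in F6, 25.8 and 29.3 CPM in F7 and 78.8 and 92.0 CPM in F8 of the 2 gradients. F9 held 0 and 42.3 CPM and F10 0.135 and 0 CPM, so among F3 to F10 the highest level of both gradients was in F8. Blastocyst fractions had 58.4, 103 and 111 CPM in F3 to F5 of gradient A and 0, 7.35 and 115 CPM in those of gradient B. RAB17 overlaps PRLH in the RefSeq annotation.

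Members were called maternal where the transcriptome was above 4-fold higher in both GV and MII oocytes than in each of 8-cell, morula and blastocyst, and embryonic in the opposite case. The maternal members were RAB3C, RAB9A, RAB26 and RAB27B (4 of 55, against 6.77% of all genes), and the embryonic ones RAB4A, RAB14, RAB17, RAB20 and RAB34 (5 of 55, against 6.67%). RAB3C had 151, 198 and 147 CPM in GV, 101, 98.5 and 74.1 CPM in 2-cell and 5.83, 5.83 and 14.9 CPM in 8-cell transcriptomes. RAB9A had 401, 346 and 437 CPM in MII, 131, 159 and 105 CPM in 2-cell and 58.2, 49.1 and 43.3 CPM in 8-cell transcriptomes. RAB26 went from 7.99, 6.87 and 10.3 CPM in 2-cell to 0.600, 1.61 and 1.30 CPM in 8-cell transcriptomes, while its 8-cell pools held 39.7 and 34.4 CPM. Of these maternal members all but RAB9A belong to the regulated secretion group.

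RAB34 showed the embryonic course, from 1.52, 2.24 and 1.65 CPM in 2-cell to 46.6, 22.1 and 17.3 CPM in 8-cell transcriptomes (3.99 ± 0.42, adjusted p = 4.49e-08) and from 12.5 and 21.8 CPM to 128 and 207 CPM in pools (3.28 ± 0.48, adjusted p = 8.79e-06). RAB14, which links Golgi and endosomes, rose from 10.2, 13.5 and 15.3 CPM to 139, 128 and 115 CPM in transcriptomes (3.29 ± 0.42, adjusted p = 7.12e-07) and from 10.4 and 13.3 CPM to 75.7 and 31.2 CPM in pools (2.18 ± 0.49, adjusted p = 0.000965). In a model of the 2-cell and 8-cell pools alone the RAB14 change was not called (2.24). RAB4A rose in transcriptomes from 4.79, 5.92 and 6.54 CPM to 23.2, 31.4 and 51.3 CPM, and RAB20, a phagosome and endosome member, from 0.228, 0.160 and 0.827 CPM to 3.17, 3.58 and 2.87 CPM. None of these 2-cell and 8-cell groups overlapped.

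**Figure D3:**
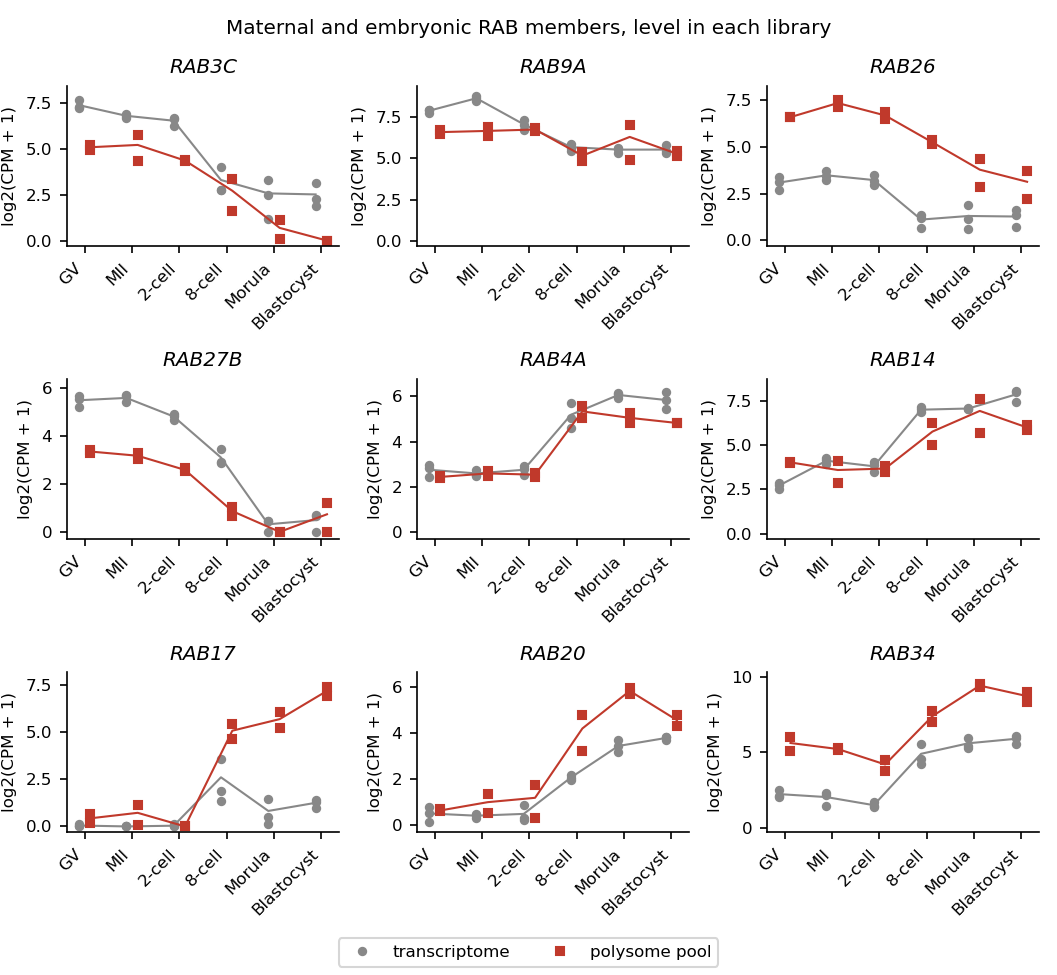
Levels of the 4 maternal (RAB3C, RAB9A, RAB26, RAB27B) and 5 embryonic members (RAB4A, RAB14, RAB17, RAB20, RAB34) at 6 stages, as log2(CPM + 1), 1 point per library (red squares, 2 polysome pools; grey circles, 3 transcriptomes), lines through the log2 of the group means. RAB17 pools reach 169 and 119 CPM in blastocysts, where its transcriptomes hold 1.47, 1.66 and 1.0 CPM.

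More members were called at the 2-cell to 8-cell transition than at any other, in shares not far from those of all genes. Calls needed a fold change above 2 and an adjusted p under 0.05. In the transcriptome 14 rose (25.5%, against 26.5% of all genes) and 16 fell (29.1% against 23.3%). In polysomes 13 rose (23.6% against 21.0%) and 16 fell (29.1% against 25.1%). The transcriptome and polysome libraries are separate samples, and 10 of the members that rose were shared (71.4% of the transcriptome's and 76.9% of the polysomes' list), as were 11 of those that fell (68.8% of each list). No member was called in opposite directions. Neither shared nor opposite calls were counted over all genes, so these shares have no value beside them. The members' median log2 change was -0.49 in the transcriptome and 0.00 in polysomes, beside 0.03 and -0.26 over all genes. Of the 9 tested members of regulated secretion, 4 fell and 0 rose in the transcriptome, and 5 fell and 0 rose in polysomes. Without 8-cell transcriptome A or B the 4 became 2 (RAB26 and RAB3C). RAB27B was lost with each of the 6 transcriptomes left out (-2.07 to -1.70) and with the replicate block (-1.83). The 5 became 3 without 2-cell pool A or 8-cell pool B and 2 without 2-cell pool B (RAB37 and RAB3A). RAB27B was lost in polysomes in all 3 of these cases (-2.67, -2.21 and -2.52). In a model of the pools of the 2 stages alone only RAB3A was called among the 9, while DESeq2 and the likelihood ratio test called 8 lower.

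Among the members that fell, RAB25 went from 10.1, 11.1 and 10.7 CPM to 1.54, 0.269 and 1.22 CPM in transcriptomes (-3.38 ± 0.45, adjusted p = 1.21e-06) and from 54.3 and 56.9 CPM to 9.88 and 12.9 CPM in pools (-2.29 ± 0.49, adjusted p = 0.000641). RAB37, a secretion member, went from 13.5 and 12.7 CPM to 0 in both pools, at least 128-fold lower, though not called in a model of these pools alone. In transcriptomes RAB37 went from 1.83, 2.24 and 1.96 CPM to 0, 0 and 0.174 CPM, a call lost without 8-cell transcriptome A or B (-4.41 and -4.43). RAB37 overlaps CD300LF in the RefSeq annotation. RAB3A fell from 9.53 and 6.37 CPM to 0 and 0.0271 CPM in pools, and RAB31, which acts between the trans-Golgi network and endosomes, from 12 and 12.8 CPM to 0 and 0.0271 CPM. The 2 stages of RAB25, RAB37, RAB3A and RAB31 did not overlap. RAB12 and RAB42 were called higher in polysomes through 8-cell pool B only (1.57 and 2.01 CPM, with pool A at 0), and without it had no count in the pools of either stage. RAB29 went from 0.0761, 0.320 and 0.226 CPM to 2.91, 3.76 and 2.96 CPM in transcriptomes (3.91 ± 1.38, adjusted p = 0.0203), a call lost without 2-cell transcriptome A or C (3.53 and 3.98).

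**Figure D4:**
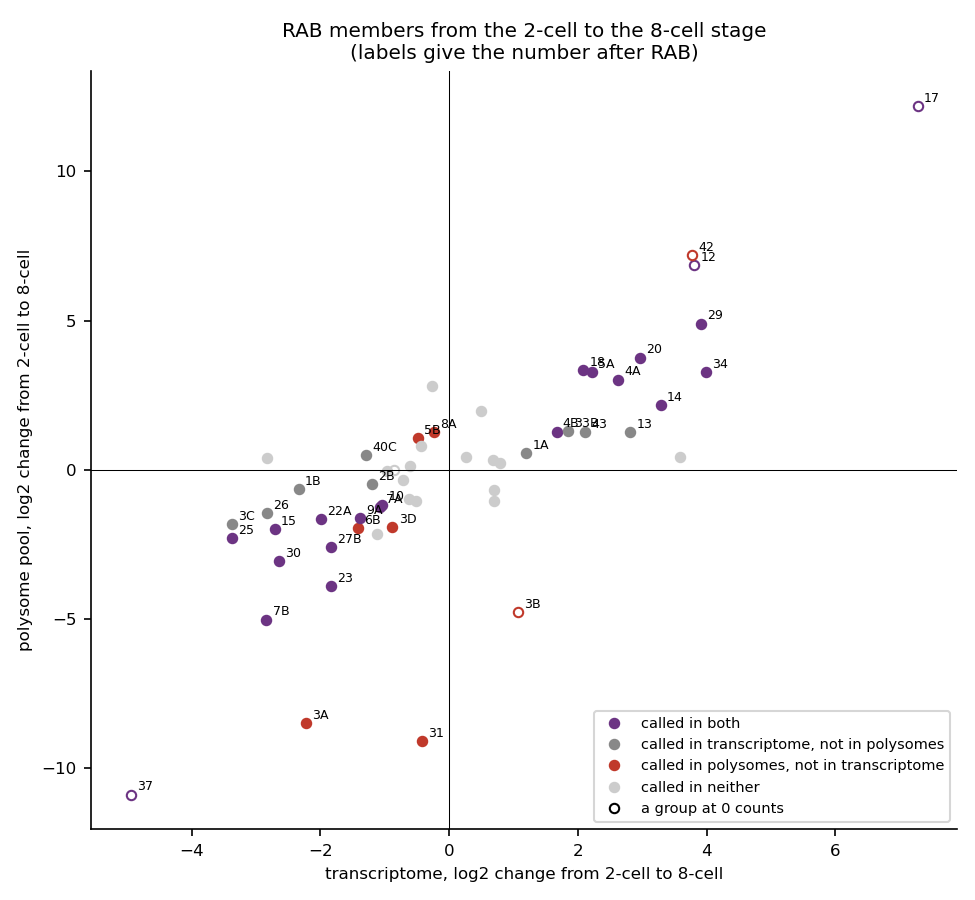
Log2 change from the 2-cell to the 8-cell stage of each of the 55 members in the transcriptome (x axis, 3 against 3 libraries) and in polysome pools (y axis, 2 against 2), coloured by where the change was called, with open circles where a group had no counts. The 10 members that rose in both lie upper right and the 11 that fell in both lower left.

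At other transitions fewer members moved, the polysomes of the 8-cell to morula transition coming closest. From GV to MII, 2 rose and 4 fell in the transcriptome (all genes, 6.60% and 10.4%), and 0 rose and 2 fell in polysomes (3.02% and 2.32%). RAB5C fell in the transcriptome from 38.0, 37.7 and 40.8 CPM to 8.59, 8.21 and 8.09 CPM (-2.23 ± 0.24, adjusted p = 2.94e-07). RAB4B (-2.22 ± 0.38), RAB40C (-1.85 ± 0.35) and RAB24 (-1.76 ± 0.36) fell too, and RAB13 and RAB14 rose. RAB1A fell in polysomes from 48.3 and 40.6 CPM to 13.0 and 16.3 CPM (-1.60 ± 0.31, adjusted p = 0.00323), without overlap. RAB5A also fell in polysomes (-1.80 ± 0.45, adjusted p = 0.0177) but lost its call without GV pool A (-1.05) or MII pool A (-1.54). In a model of the GV and MII pools alone neither RAB1A (-1.64) nor RAB5A (-1.84) was called.

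From MII to the 2-cell stage, 6 members rose and 2 fell in the transcriptome (all genes, 5.99% and 5.96%). RAB5C returned to 33.8, 36.6 and 49.1 CPM (2.26 ± 0.24, adjusted p = 1.26e-06), and RAB40C (2.23 ± 0.35), RAB4B (1.15 ± 0.38) and RAB24 (1.16 ± 0.36) also rose, so each of the members that fell on maturation rose after it. These 2 changes share the MII transcriptomes. In polysomes 1 member rose and 2 fell (all genes, 3.40% and 5.21%). RAB1A (1.11 ± 0.31) was lost without MII pool A (0.96), MII pool B (1.27) or 2-cell pool B (0.85). RAB11A (-1.03 ± 0.26) was lost without MII pool B (-1.01) or 2-cell pool A or B (-1.17 and -0.90), and the call of RAB17 without MII pool A (-3.45) or 2-cell pool A or B (-6.51 and -6.52). None of the 3 was called in a model of these pools alone (1.06, -1.07 and -7.27), nor was RAB17 with F9 and F10 alone (-4.23).

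RAB13, a tight junction member, had 3.72, 3.79 and 4.26 CPM in GV, 28.7, 30.3 and 25.9 CPM in MII, 2.89, 3.68 and 4.06 CPM in 2-cell and 35.9, 17.8 and 21.0 CPM in 8-cell transcriptomes. All 3 changes were called (2.85 ± 0.72, -3.00 ± 0.72 and 2.81 ± 0.72), and no neighbouring stages overlapped. Of the 8 cumulus and granulosa markers, whose sums are given above, CYP11A1, TNFAIP6 and PTX3 followed the same course. The means of FSHR and AMH did so too, at levels around the floor from GV to 2-cell, and HAS2, CYP19A1 and FOXL2 did not. CYP11A1 had 0, 0 and 0.101 CPM in GV, 12.9, 21.9 and 13.2 CPM in MII, 0.0761, 0.160 and 0 CPM in 2-cell and 146, 51.1 and 61.3 CPM in 8-cell transcriptomes. TNFAIP6 had 82.0, 147 and 144 CPM in MII and 23.9, 29.6 and 34.7 CPM in 8-cell transcriptomes and at most 0.160 CPM in those of GV and 2-cell. PTX3 had 0.987, 1.44 and 0.912 CPM in GV, 10.3, 9.63 and 8.33 CPM in MII, 1.29, 1.60 and 3.76 CPM in 2-cell and 15.0, 16.6 and 11.8 CPM in 8-cell transcriptomes. HAS2, with the highest level of the list in 2-cell transcriptomes, went from 27.3, 34.4 and 37.7 CPM in GV to 169, 184 and 187 CPM in MII, 110, 103 and 98.5 CPM in 2-cell and 44.9, 9.23 and 19.3 CPM in 8-cell transcriptomes, so it was lower where RAB13 rose. CYP19A1 also stood lower in 8-cell (1.29, 1.25 and 0.783 CPM) than in MII transcriptomes (3.21, 4.36 and 5.23 CPM). FSHR and AMH were at most 0.710 CPM in GV, MII and 2-cell transcriptomes, and FOXL2 was at 0 in them. In 8-cell transcriptomes FSHR had 8.05, 2.06 and 1.83 CPM, AMH 1.03, 0.717 and 0.174 CPM and FOXL2 0.343, 0 and 0.522 CPM. AMH had 9.94 and 27.2 CPM in the MII pools. The part of these cells in the RAB13 levels was not tested.

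From the 8-cell stage to the morula, 2 members rose and 4 fell in the transcriptome (all genes, 6.56% and 7.73%) and 12 rose and 9 fell in polysomes (18.4% and 17.7%). RAB7B, a lysosomal relative of RAB7A, went from 0.514, 1.34 and 1.22 CPM to 27.7, 37.8 and 64.9 CPM in transcriptomes (5.40 ± 0.78, adjusted p = 4.43e-05), and from 0 and 1.79 CPM to 118 and 51.6 CPM in pools (6.51 ± 0.98, adjusted p = 2.93e-05). RAB32, of lysosome-related organelles, fell from 82.9, 21.1 and 25.1 CPM to 0.560, 0.536 and 0.970 CPM in transcriptomes (-5.96 ± 1.15, adjusted p = 0.000885). Neither gene's stages overlapped. In polysomes RAB3A rose from 0 and 0.0271 CPM to 7.42 and 6.61 CPM (8.29 ± 1.47, adjusted p = 0.000208), and RAB3B from 0 to 6.02 and 3.45 CPM, at least 46.4-fold, though not called in a model of these pools alone. RAB39A and RAB3C were called lower in polysomes on uneven pools. RAB39A was lost without 8-cell pool B or morula pool A (-2.22 and -3.19), and RAB3C without 8-cell pool A or morula pool A (-1.60 and -2.21), and neither was called in a model of these pools alone (-4.11 and -3.17). RAB37 was called higher through morula pool A (2.55 CPM) only.

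From the morula to the blastocyst, 10 members rose and 9 fell in the transcriptome (all genes, 10.1% and 11.4%) and 2 rose and 4 fell in polysomes (5.75% and 8.06%). RAB25 rose in both, in transcriptomes from 2.15, 4.47 and 4.09 CPM to 29.7, 39.6 and 32.8 CPM (3.25 ± 0.43, adjusted p = 6.31e-06) and in pools from 19.2 and 47.6 CPM to 311 and 379 CPM (3.37 ± 0.51, adjusted p = 0.000206). RAB15 rose in transcriptomes from 8.59, 6.08 and 5.49 CPM to 55.9, 62.0 and 75.0 CPM (3.26 ± 0.41, adjusted p = 3.47e-06). In the recycling pair, RAB11A fell from 1170, 1239 and 1123 CPM to 370, 317 and 377 CPM (-1.73 ± 0.22, adjusted p = 4.10e-06) and RAB11B rose from 8.12, 5.72 and 4.96 CPM to 42.0, 31.5 and 32.2 CPM (2.49 ± 0.45, adjusted p = 0.000262). None of these stages overlapped. RAB1B fell in pools from 74.7 and 79.3 CPM to 18.4 and 24.8 CPM (-1.83 ± 0.51, adjusted p = 0.0191), a call lost without blastocyst pool A or B (-1.63 and -2.04) and in a model of these pools alone (-1.78). RAB27B was called higher in polysomes through blastocyst pool B (1.32 CPM) only. Without morula pool B the polysome calls of this transition numbered 16 in place of 6, and without blastocyst pool A or B 3.

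The interaction of kind of library and stage asked whether polysomes changed otherwise than the transcriptome. Called members numbered 7 on maturation from GV to MII (10.6% of all genes) and 1 between MII and the 2-cell stage (1.83%). They numbered 5 on the way to the 8-cell stage (12.1%), 6 between the 8-cell stage and the morula (12.4%) and 13 at blastocyst formation (12.2%). On maturation, RAB5C (2.30 ± 0.37, adjusted p = 0.000148), RAB24 (2.20 ± 0.56, adjusted p = 0.0108) and RAB4B (1.87 ± 0.56, adjusted p = 0.0331) fell in the transcriptome and had log2 changes of 0.08, 0.44 and -0.35 in polysomes. RAB5A (-2.52 ± 0.57, adjusted p = 0.00445) and RAB1A (-1.93 ± 0.40, adjusted p = 0.00202) fell in polysomes, with changes of 0.72 and 0.33 in the transcriptome. The calls of this transition numbered 2 without GV pool A and 4 without GV pool B, GV transcriptome A or GV transcriptome C. The 1 call from MII to 2-cell, RAB1A, was lost with each library of the 2 stages left out but MII pool A.

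From morula to blastocyst, RAB15 (-3.26 ± 0.60, adjusted p = 0.00119), RAB11B (-2.87 ± 0.69, adjusted p = 0.00923) and RAB35 (-2.65 ± 0.73, adjusted p = 0.0209) rose in the transcriptome against changes of -0.01, -0.38 and -0.16 in polysomes. RAB18 (2.54 ± 0.62, adjusted p = 0.00974) and RAB8A (1.60 ± 0.46, adjusted p = 0.0246) fell in the transcriptome (-2.26 and -1.49) against changes of 0.28 and 0.11 in polysomes. Without blastocyst pool A or B the calls of this transition numbered 8 and 7. Leaving out 8-cell pool B brought those from 2-cell to 8-cell to 13 and those from 8-cell to morula to 15, leaving out morula pool B brought the latter to 16 and leaving out morula pool A to 9. Those from 2-cell to 8-cell numbered 2 without 2-cell pool B and 3 without 2-cell pool A, 2-cell transcriptome C or 8-cell pool A.

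Over all 6 stages, the slope of the polysome level on stage order was tested in the 12 pools over 14339 genes. It was positive for 12 members and negative for 5 (all genes, 17.4% and 15.9%). RAB17 (1.94 ± 0.41 log2 units per stage, adjusted p = 0.00339), RAB20 (1.51 ± 0.30, adjusted p = 0.00245), RAB34 (0.90 ± 0.19, adjusted p = 0.00338) and RAB2A (0.84 ± 0.19, adjusted p = 0.00455) were among those that rose, and so were all of RAB5A, RAB5B and RAB5C (0.31 to 0.68). RAB3C (-1.93 ± 0.45, adjusted p = 0.00592), RAB26 (-0.90 ± 0.17, adjusted p = 0.00219), RAB2B, RAB22A and RAB6A fell. RAB42, with the highest slope (2.92 ± 0.60), had no count in the pools of the first 3 stages.

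The place of a transcript along the gradient was followed by Spearman's rho of its level with fraction number over F3 to F10 of both gradients (16 libraries), with a two-sided permutation p. Fractions of one gradient are not independent samples, so these p-values describe an ordering within 2 gradients. In GV oocytes 12 of 47 members tested rose toward F10 and 5 fell (all genes, 18.1% and 18.7%). In MII oocytes 2 of 47 rose and 9 fell (7.32% and 12.3%), in 2-cell embryos 4 and 5 of 47 (10.7% and 9.88%), in 8-cell embryos 3 and 5 of 52 (6.45% and 8.62%), in morulae 0 and 1 of 48 (0.991% and 0.715%) and in blastocysts 3 and 2 of 50 (6.21% and 1.77%). With 1 gradient alone the calls fell to 7 to 9 in GV, 0 to 2 in MII and 0 to 7 in 2-cell samples and to 0 at later stages.

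RAB1A had 6.47, 10.8 and 3.66 CPM in F3 to F5 and 29.6, 48.7 and 58.4 CPM in F8 to F10 of GV gradient A, and 9.75, 14.2 and 11.9 CPM and 25.3, 48.7 and 38.5 CPM in those of gradient B (rho = 0.90, permutation p = 1.00e-05, the smallest the permutations can give, adjusted p = 0.000213). It thus rose toward the heavy end of the GV gradient, while its share of the polysome pool was below its share of the transcriptome. RAB5C had the opposite profile, with 213, 156 and 153 CPM in F3 to F5 and 85.7, 57.0 and 85.7 CPM in F8 to F10 of gradient A (rho = -0.93, permutation adjusted p = 0.000213), and 503 and 545 CPM in F2 of the 2 gradients. RAB3C and RAB27B, both maternal, rose along the GV gradients (rho = 0.90 and 0.93).

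RAB11A and RAB9A had opposite trends in GV and MII oocytes. RAB11A had 382, 357 and 308 CPM in F3 to F5 and 445, 509 and 751 CPM in F8 to F10 of GV gradient A (rho = 0.76, permutation adjusted p = 0.00552). In MII gradient A it had 1319, 887 and 1037 CPM and 692, 553 and 603 CPM (rho = -0.76, permutation adjusted p = 0.00950). RAB9A had a rho of 0.80 in GV and -0.78 in MII oocytes (permutation adjusted p = 0.00243 and 0.00860). Both fell again along the 2-cell gradients (-0.87 and -0.90), and RAB11A rose along the blastocyst gradients (0.80, permutation adjusted p = 0.0122). RAB8A had 131, 79.1 and 92.5 CPM in F3 to F5 and 28.8, 34.9 and 19.6 CPM in F8 to F10 of MII gradient A (rho = -0.96, permutation adjusted p = 0.000894). RAB34 kept its direction, rising in GV (0.74), MII (0.64) and 8-cell gradients (0.71). RAB3A fell along the GV (-0.75), 8-cell (-0.67) and morula gradients (-0.83, permutation adjusted p = 0.0201). Its mean in morulae was 77.7 CPM in F3 to F5 and 6.14 CPM in F8 to F10.

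**Figure D5:**
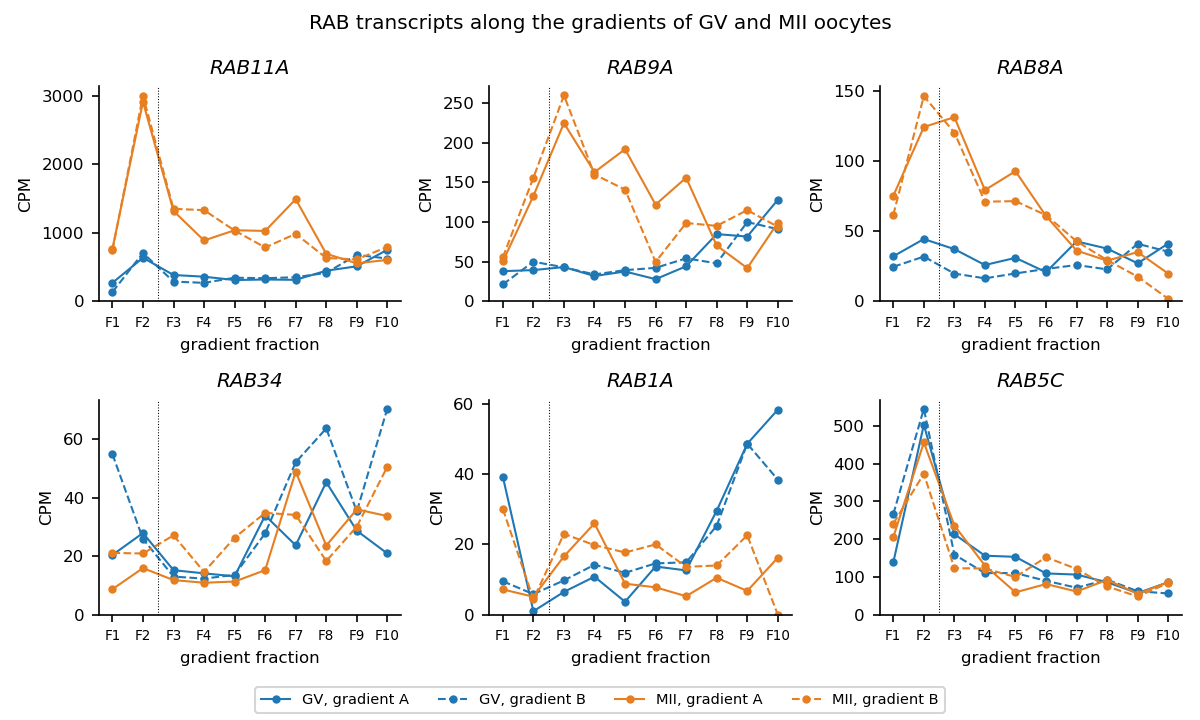
CPM of 6 members in fractions F1 to F10 (x axis; the dotted line separates F1 and F2, outside the trend) of GV (blue) and MII (orange) oocytes, with gradient A solid and gradient B dashed. Over F3 to F10 the RAB11A and RAB9A trends are positive in GV and negative in MII oocytes, RAB8A falls in MII oocytes, RAB1A rises in GV oocytes, and RAB5C falls at both stages.

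The machinery that loads, activates and reads RAB proteins was followed in 4 lists. Of 8 prenylation and recycling genes, 3 to 4 were called higher (37.5% to 50.0%, against 19.9% to 30.7% of all genes) and 1 to 3 lower (12.5% to 37.5%, against 17.6% to 31.0%) in polysomes at each stage, shares in which 1 gene is 12.5%. RABGGTA, a subunit of the transferase that prenylates RABs, had 71.5 and 64.1 CPM in MII pools against 0.801, 1.22 and 0.833 CPM (6.14 ± 0.59, adjusted p = 5.47e-09). CHM, the escort protein that presents RABs to it, had 0.0410 and 0 CPM in 8-cell pools against 23.4, 21.8 and 17.3 CPM (-9.77 ± 1.35, adjusted p = 1.98e-06). Each stood clear of its transcriptomes. RABAC1, a prenylated RAB receptor, rose from 0.304, 1.68 and 0.978 CPM in 2-cell to 256, 86.7 and 93.7 CPM in 8-cell transcriptomes (7.20 ± 0.50, adjusted p = 6.50e-11), as did RABIF (3.67 ± 0.52, adjusted p = 3.42e-06).

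Of 43 exchange factors, 14, 15, 15, 11, 18 and 9 were higher in polysomes from GV to blastocyst, or 32.6%, 34.9%, 34.9%, 25.6%, 41.9% and 20.9% (all genes, 22.1%, 30.7%, 29.0%, 27.9%, 26.4% and 19.9%). Lower were 8, 9, 6, 13, 4 and 3, or 18.6%, 20.9%, 14.0%, 30.2%, 9.30% and 6.98% (all genes, 17.6%, 26.7%, 21.9%, 31.0%, 25.1% and 19.9%). Of 38 GTPase activating proteins 17, 16, 16, 15, 15 and 5 were higher, or 44.7%, 42.1%, 42.1%, 39.5%, 39.5% and 13.2%, and 7, 11, 10, 9, 10 and 6 lower, or 18.4%, 28.9%, 26.3%, 23.7%, 26.3% and 15.8%. The exchange factor DENND1C had 20.9 and 8.80 CPM in MII pools against 0, 0 and 0.119 CPM (8.39 ± 1.22, adjusted p = 4.25e-06), and SBF1 5.66 and 91.5 CPM against 0.229, 0.507 and 0.476 CPM (6.88 ± 1.51, adjusted p = 0.000456). EVI5, a TBC protein, had 0.0410 and 0.298 CPM in 8-cell pools against 60.8, 40.3 and 46.3 CPM (-8.03 ± 0.78, adjusted p = 1.00e-08), and TBC1D10C 4.59 and 9.97 CPM in 2-cell pools against 0.152, 0 and 0.226 CPM (5.77 ± 1.60, adjusted p = 0.00469). From the 2-cell to the 8-cell transcriptome RIN1 (5.21 ± 1.83), RIN2 (4.88 ± 0.78) and TBC1D9 (5.16 ± 1.26) rose and TBC1D8 fell (-3.68 ± 0.49).

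Of 47 effectors tested, 9, 12, 10, 10, 12 and 3 were higher from GV to blastocyst, or 19.1%, 25.5%, 21.3%, 21.3%, 25.5% and 6.38%, each under the share of all genes just given. Lower were 7, 12, 9, 13, 9 and 8, or 14.9%, 25.5%, 19.1%, 27.7%, 19.1% and 17.0%, also each under it. VPS18, of the complexes that tether endosomes and lysosomes, had 311 and 188 CPM in MII pools against 1.14, 1.42 and 1.07 CPM (7.67 ± 0.40, adjusted p = 5.15e-13), and RAB11FIP3, an effector of RAB11, 42.0 and 20.2 CPM against 0.114, 0.203 and 0 CPM (8.06 ± 1.24, adjusted p = 6.18e-06). From 2-cell to 8-cell, 5 effectors rose and 13 fell in the transcriptome (10.6% and 27.7%, against 26.5% and 23.3% of all genes) and 3 rose and 18 fell in polysomes (6.38% and 38.3%, against 21.0% and 25.1%). MYO5B, a myosin that binds RAB11, fell from 106, 92.0 and 71.7 CPM to 2.49, 2.87 and 6.18 CPM in transcriptomes (-4.54 ± 0.89, adjusted p = 0.000185). MICALL2, an effector of RAB13 at junctions, was called higher (4.70 ± 1.47, adjusted p = 0.0101) at low levels, 0, 0.0799 and 0 CPM in 2-cell and 1.29, 0.538 and 0.696 CPM in 8-cell transcriptomes.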

How the data were processed

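The estimated counts per gene of 138 libraries were deposited by the authors as a Salmon output table, so they are expected counts and not normalized; 11.7% of the values were not whole, and they were rounded to whole numbers. The labels give Trizol extraction with Smart-seq V4 and Nextera XT libraries, the submitters' processing notes name UMD3.1, and the study's methods name ARS-UCD1.2 in its place. The Salmon version is not given in the sources used here. All sample columns matched a label, and 0 columns were left unmapped.

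Counts of F8 to F10 were summed per gradient. The 12 pools and 18 transcriptomes were filtered (filterByExpr), TMM-scaled and fitted in 1 model by edgeR 4.0.16's quasi-likelihood test (limma 3.58.1, R 4.3.3), with Benjamini-Hochberg adjustment over all genes. Calls needed an adjusted p under 0.05, a fold above 2 at transitions and above 4 for maternal or embryonic classes. Trends used Spearman's rho of log2(CPM + 1) over F3 to F10, 100000 permutations and a mean of at least 1 CPM (Python 3.11.15, scipy 1.17.1, numpy 2.4.6, pandas 2.3.3). Fits were tested on simulated data. Alternatives were the likelihood ratio test, DESeq2 1.42.0, its size factors, no filter, F9 and F10 alone, separate models, a replicate block, each library left out and, chosen after seeing the data, F3 to F5 or F1 and F2 in place of F8 to F10.

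Named by rule were RAB17, the RAB5 and RAB11 subfamilies, maternal and embryonic members, up to 3 called members per direction with the largest change in each stage comparison and transition, the 3 largest interactions per direction and 4 genes per partner list. Others, such as RAB4A, RAB7A, RAB8A, RAB27A, RAB35 and RAB3D, were named after their values were seen. Members and lists were chosen with earlier results of these data known. Names and gene neighbours come from the RefSeq table of ARS-UCD2.0, in which all 59 members matched; no coordinates were used. Of 78 library pairs compared, 0 were identical. Floors cover counting error only.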

Additional observations from a re-analysis of the deposited data

Results flagged for a closer look

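The change of 32 member and transition pairs differed between polysomes and transcriptome by the interaction test of edgeR's quasi-likelihood model (polysome change minus transcriptome change, log2, adjusted p under 0.05 over all genes). From GV to MII these were RAB1A (-1.93), RAB5A (-2.52), RAB10 (-1.24) and RAB14 (-2.02) below 0, and RAB4B (1.87), RAB5C (2.30) and RAB24 (2.20) above 0. From MII to 2-cell it was RAB1A (1.56). From 2-cell to 8-cell they were RAB3A (-6.26) and RAB31 (-8.68) below 0, and RAB5B (1.53), RAB8A (1.48) and RAB40C (1.79) above 0.

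From 8-cell to morula they were RAB1A (2.02), RAB2A (2.29), RAB3A (6.78), RAB3B (7.99) and RAB31 (7.56) above 0 and RAB40C (-2.34) below 0. From morula to blastocyst they were RAB8A (1.60), RAB11A (1.33), RAB18 (2.54) and RAB39A (5.57) above 0. RAB3C (-6.47), RAB4B (-1.85), RAB5A (-2.09), RAB5B (-1.46), RAB6A (-1.53), RAB7A (-1.49), RAB11B (-2.87), RAB15 (-3.26) and RAB35 (-2.65) were below 0 there. The values of RAB3A, RAB3B, RAB3C and RAB31 involve a stage with polysome pools at or near 0, depend on the prior count of the fit and are no bound. RAB31 from 8-cell to morula was lost without morula pool B (2.32), RAB3B without 8-cell pool A or B (7.97 and 7.93), and RAB3C without morula pool B (-2.87), blastocyst pool A or B (-6.46 each) or blastocyst transcriptome A (-6.00).

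Along the gradients, the rho of RAB9A went from 0.80 in GV to -0.78 in MII oocytes and that of RAB11A from 0.76 to -0.76, with both gradients of each stage on the same side. The difference between the stages was not tested.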

How the results depend on the processing

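Named members kept their direction and side of the threshold in 192 of 202 results under DESeq2, 198 of 202 with DESeq2's size factors, 199 of 202 without a filter, 195 of 202 by the likelihood ratio test, 128 of 141 with F9 and F10 alone, 158 of 189 in separate models of each comparison and 944 of 1049 with single libraries left out. With F3 to F5 they did in 62 of 75 and with F1 and F2 in 54 of 75. Separate models lost 28 calls, 23 of them polysome changes fitted on 4 pools, and gained 3. Beside those named in the report, the polysome changes lost were those of RAB5B, RAB9A, RAB12, RAB20, RAB27B and RAB42 from 2-cell to 8-cell, RAB25, RAB27B and RAB37 from 8-cell to morula and RAB3C, RAB5A and RAB27B from morula to blastocyst, and RAB9B lost its call against the transcriptome in 8-cell embryos. Among these named results, directions turned in 8 when light fractions replaced F8 to F10. With F3 to F5 these were RAB39B in MII (0.88), RAB3C in blastocysts (1.86), RAB17 in 8-cell (-7.67) and RAB11A in blastocysts (-0.54). With F1 and F2 they were RAB3B in 8-cell (0.07), RAB9B in morulae (0.79), RAB5B in blastocysts (-0.46) and RAB11A in blastocysts (-0.16). Called results outside this set also turned. Examples are RAB43 and RAB24 in blastocysts with F1 and F2 (-6.23 and -3.12) and RAB3A in 8-cell with F3 to F5 (5.02). The cause was not tested.

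Counts of called members also moved. Against the transcriptome, members lower in 2-cell numbered 8 with F1 and F2, and members higher in blastocysts 10 with F3 to F5 and 8 with F1 and F2. Separate models of each comparison gave 13 higher and 9 lower in 8-cell and 5 lower in morulae, and F9 with F10 gave 12 higher in morulae. Transcriptome changes numbered 11 under DESeq2 and 12 in separate models from GV to MII, 15 in separate models from MII to 2-cell, and 10 and 14 from 8-cell to morula. Polysome changes numbered 4 by the likelihood ratio test, 6 under DESeq2 and 0 in separate models from GV to MII, 5, 5 and 0 from MII to 2-cell, and 12, 11 and 1 from morula to blastocyst, and separate models gave 10 from 2-cell to 8-cell and 6 from 8-cell to morula. Interactions numbered 4 from GV to MII and 8 from morula to blastocyst with F9 and F10, 2 from MII to 2-cell by the likelihood ratio test and under DESeq2, and 10 from 8-cell to morula under DESeq2. Falling slopes numbered 9 by the likelihood ratio test and 10 under DESeq2, and blastocyst trends 3 without a filter.

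With single libraries left out, members lower in GV polysomes numbered 7 to 10, transcriptome changes from MII to 2-cell 5 to 7, and polysome changes 1 to 2 from GV to MII, 0 to 2 from MII to 2-cell and 3 to 16 from morula to blastocyst. Interactions numbered 2 to 7, 0 to 1, 2 to 13, 5 to 16 and 7 to 16 in the order of transitions, and trends 7 to 9 in GV, 0 to 2 in MII, 0 to 7 in 2-cell and 0 to 0 from 8-cell on.

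The labels do not state that replicate letters pair samples. Deviations of same-lettered libraries correlated at -0.345 to 0.13, and 1 of 15 transcriptome pairs of consecutive stages exceeded 0.1. Such values cannot show whether same-lettered samples shared a batch, and with 2 pools per stage the deviations of A and B mirror each other. By the study's methods, transcriptome samples were taken from the batches used for the gradients. With the letter as a replicate block, interactions from MII to 2-cell numbered 0, trends 2 in morulae and 3 in blastocysts, and 196 of 202 results of named members were unchanged in call. DESeq2's size factors moved the median of all genes against the transcriptome to 0.01 in 2-cell, -0.50 in 8-cell, -0.11 in morula and -0.23 in blastocyst samples, transcriptome medians to 0.12 from GV to MII and -0.18 from 8-cell to morula, and the polysome median to -0.41 from 2-cell to 8-cell. With 2 pools per stage the spread of polysome levels is set largely by the shared model, and levels near the floor are not resolved.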
